A study of Mus musculus with 39 samples.

Results

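The nuclear genes for the subunits of respiratory complex I were followed across the interscapular brown fat of mice that differed in a Cre label and in housing temperature. The members were all genes whose symbol begins with Nduf, then a, b, c, s or v, then a number, with a mean of at least 10 normalised counts over the 16 RNA libraries. The symbol alone matched 37 of 24116 gene entries, and all 37 passed the mean, among 13176 genes that did. All mice were male C57BL/6J with a BCL6-floxed allele, which Cre recombinase can cut out, so the controls carry the floxed allele too. Controls had no Cre, and the other mice carried UCP1Cre, whose promoter is that of Ucp1, a gene of brown adipocytes. Each genotype was kept at 22 °C or at 30 °C, near the temperature where a mouse needs little extra heat, with 4 libraries in each of the 4 groups. The animals' age and whether each library is 1 animal are not stated in the labels, so p-values measure only the spread between these samples. Each value is a normalised count, the deposited signal of a gene in a library after scaling between libraries. Only differences relative to the other genes of a library can be seen in such values.

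Complex I, the NADH:ubiquinone oxidoreductase of the inner mitochondrial membrane, takes electrons from NADH, passes them along iron-sulfur clusters to ubiquinone and pumps protons. Its matrix arm has an N module, where NADH is oxidised, and a Q module, where ubiquinone is reduced. Its membrane arm does the pumping with subunits made from mitochondrial DNA. Core subunits carry out the reaction and have relatives in bacteria, while accessory subunits surround them and serve assembly, stability and regulation. Brown fat is rich in mitochondria, and its heat comes from respiration that Ucp1 uncouples from ATP production. The members comprised 7 core subunits and 28 accessory subunits. The other 2 were Ndufa4, long listed under complex I but now regarded as a subunit of complex IV, and its paralog Ndufa4l2. They lay on 15 chromosomes of the RefSeq annotation of GRCm38.p6 (mm10), with Ndufa1 and Ndufb11 on the X chromosome. The core subunits made from mitochondrial DNA were not analysed here.

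The deposited BCL6 peaks, from ChIP in Cre-negative fat at 30 °C, touched the starts of a few members, whose upstream sequence is shown because peak and RNA can be read side by side there. The list held 3022 peaks, each with the score the authors' peak caller gave. Within 10 kb, 4 of 37 members (10.81%) had a peak nearest to their start, against 7.75% of 13170 tested symbols. They were Ndufb6, Ndufs8, Ndufa3 and Ndufa10, and all 4 peaks were within 1 kb, where the share over tested symbols was 5.21%. None of these peaks was among the higher-scoring 50% of the list, which reached 0 members and 3.74% of symbols. Counting any peak within 1 kb of a start, whichever gene was nearest, added Ndufa11 and Ndufs5 and gave 6 of the 32 members with a promoter entry, against 5.99% of the 10297 tested genes with an entry and 2.96% of all 27025 genes in the table. The scores were 5.36 at Ndufa11, 5.01 at Ndufb6, 4.83 at both Ndufs8 and Ndufa3, and 4.11 at both Ndufa10 and Ndufs5, so that Ndufa11 lay above the list's median of 5.18 and the others below it. At Ndufb6 the peak at chr4:40279428-40279608 ran from 187 to 7 bases upstream of the start. At Ndufs8 it lay at chr19:3912660-3912840 and ran from 66 bases upstream to 114 bases past the start. At Ndufa11 it lay at chr17:56717400-56717580, from 362 to 182 bases upstream. Below are the 250 bases before each start, from the RefSeq promoter table of GRCm38.p6, 5′ to 3′ on the gene's strand, with the bases that lie under the peak in capitals. They are chr4:40279422-40279671 (minus strand) for Ndufb6, chr19:3912775-3913024 (minus strand) for Ndufs8 and chr17:56717512-56717761 (plus strand) for Ndufa11. The peak covers 181, 66 and 69 of the printed bases in that order.
Ndufb6: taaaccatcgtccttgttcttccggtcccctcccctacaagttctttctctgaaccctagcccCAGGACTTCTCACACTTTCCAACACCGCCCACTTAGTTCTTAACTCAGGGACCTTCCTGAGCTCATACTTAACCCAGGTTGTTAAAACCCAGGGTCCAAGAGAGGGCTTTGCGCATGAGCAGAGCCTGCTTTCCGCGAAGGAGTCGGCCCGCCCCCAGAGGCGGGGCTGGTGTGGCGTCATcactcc
Ndufs8: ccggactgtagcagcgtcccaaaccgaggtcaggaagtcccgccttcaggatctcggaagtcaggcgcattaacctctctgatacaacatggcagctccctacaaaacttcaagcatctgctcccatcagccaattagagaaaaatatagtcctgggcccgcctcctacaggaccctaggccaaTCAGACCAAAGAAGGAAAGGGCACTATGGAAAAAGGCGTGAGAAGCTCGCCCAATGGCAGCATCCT
Ndufa11: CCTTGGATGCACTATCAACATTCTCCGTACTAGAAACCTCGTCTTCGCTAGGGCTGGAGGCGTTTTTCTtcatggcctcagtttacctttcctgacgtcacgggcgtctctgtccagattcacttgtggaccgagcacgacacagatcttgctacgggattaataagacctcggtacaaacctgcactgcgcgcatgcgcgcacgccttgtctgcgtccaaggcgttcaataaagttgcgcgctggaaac

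Promoter windows of 300 bases (250 before to 50 past the start) were searched on both strands for letters known from regulators of mitochondrial genes. An entry was found for 32 of 37 members, and those without one included Ndufa2, Ndufa4l2, Ndufb9 and Ndufs1. The YY1 letters AAGATGGCG were in 5 of 32 member promoters (15.62%), in 3.51% of the 10297 promoters of tested genes and in 1.64% of 27025 genes in the table. All 5 matches were on the gene's own strand and began 23 to 36 bases past the start. The letters contain ATG, and whether a match is a YY1 site or the start of a coding sequence was not tested. Over the whole table, 56.4% of the 443 genes with these letters had a match past the start. The NRF1 letters GCATGCGC were in 3 of 32 member promoters (9.38%), against 5.79% of tested promoters and 3.05% of all. The ETS letters CCGGAAG were in 4 of 32 (12.5%; Ndufb6, Ndufb7, Ndufs3 and Ndufs8), against 19.52% and 9.93%. The ERR letters TCAAGGTCA and the BCL6 letters TTCCTAGAA were in 0 of 32, against 0.35% and 0.44% of tested promoters. No member promoter held matches to more than 1 of the 5 motifs. The YY1 and NRF1 matches are shown with their surroundings, 30 bases each, so that the shared letters and the position past the start can be seen. The capitals mark the letters searched, and at Ndufa11 they cover matches on both strands that overlap each other.
Ndufa9 (YY1, chr6:126849096-126849125, minus strand): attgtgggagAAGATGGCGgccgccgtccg
Ndufc1 (YY1, chr3:51408914-51408943, minus strand): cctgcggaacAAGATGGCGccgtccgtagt
Ndufs4 (YY1, chr13:114388045-114388074, minus strand): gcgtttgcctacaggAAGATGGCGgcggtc
Ndufs6 (YY1, chr13:73328433-73328462, minus strand): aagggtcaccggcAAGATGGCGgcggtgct
Ndufs7 (YY1, chr10:80249463-80249492, plus strand): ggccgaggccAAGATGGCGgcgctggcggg
Ndufa11 (NRF1, chr17:56717691-56717720, plus strand): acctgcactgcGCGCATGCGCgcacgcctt
Ndufa6 (NRF1, chr15:82354356-82354385, minus strand): tccgcggtagaGCATGCGCattgcagagcc
Ndufa8 (NRF1, chr2:36049328-36049357, minus strand): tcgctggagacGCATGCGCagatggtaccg
In the same order, the letters begin 30, 23, 36, 34 and 25 bases past the start for YY1 and 60, 83 and 8 bases upstream of it for NRF1. All 8 of these members passed the test as lower at 30 °C than at 22 °C in the controls, as did 32 of all 37 members.

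Facts about the libraries that touch every result come first. The gene that carries the floxed allele, Bcl6, which encodes a transcriptional repressor, was higher in the libraries labelled Cre-positive. It stood at 916, 799, 764 and 1838 in controls and 3263, 2671, 3362 and 3927 in Cre-labelled libraries at 22 °C. At 30 °C the values were 2340.4, 2266, 1763 and 1020.1 against 3269, 4451, 5159 and 4985, without overlap between genotypes in the cool or in the warm (limma adjusted p = 8.25e-04 and 0.00438). The sources used here do not say whether the deposited value covers the deleted exons, so it does not check the label, and every genotype direction below rests on the label alone. Totals of normalised counts ran from 8867615 to 13516936, and 14311 to 16849 genes had a value above 0. Libraries 1 of the controls and 2 of the Cre-labelled group at 22 °C had the fewest such genes of their groups, 14311 and 15226. In control library 1, 36 of 37 members were the highest of their group and 35 the highest of all 16 libraries. In Cre-labelled library 2, all 37 members were the highest of their group. Against the mean of the other 3 libraries of its group, control library 1 was higher by a median of 1.88 times over the accessory members and 1.43 times over the core members. For Cre-labelled library 2 these ratios were 1.65 and 1.41. Counts, medians and the larger differences that rest on these libraries are given with and without them. Many short mitochondrial genes have processed pseudogenes, and how reads shared with such copies were divided is not stated, so values of single members can carry that error.

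**Figure D1:**
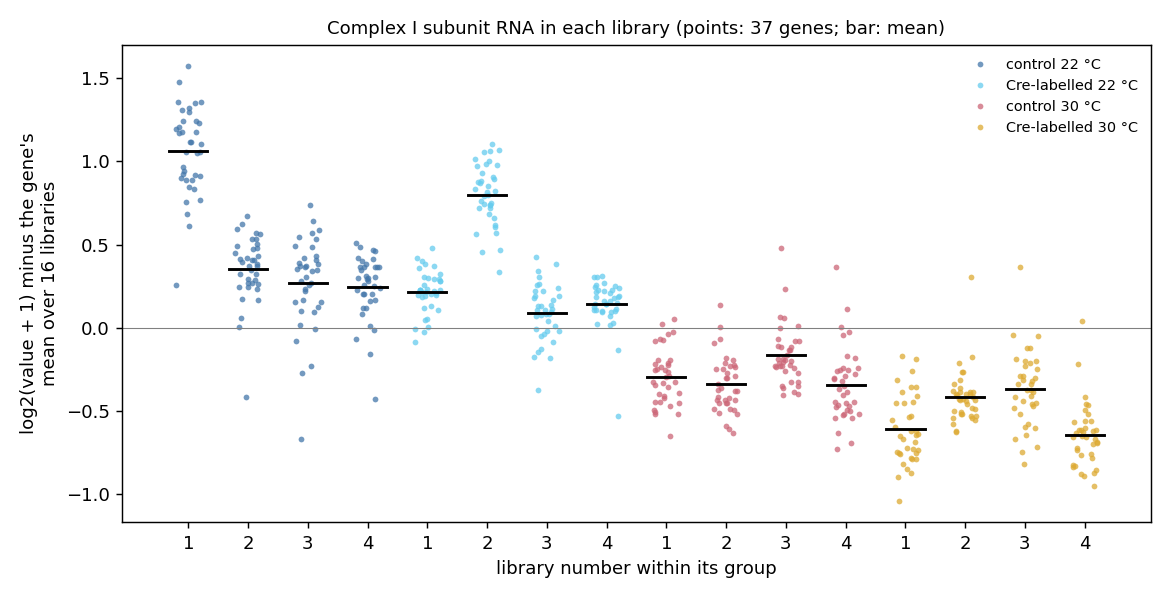
Each point is 1 of the 37 complex I genes, placed by its log2(value + 1) in a library minus that gene's mean over all 16 libraries, and bars are the mean of the points in a library. The bars sit at 0.25 to 1.06 in control and 0.09 to 0.80 in Cre-labelled libraries at 22 °C, and at -0.34 to -0.17 and -0.65 to -0.37 at 30 °C, with library 1 of the 22 °C controls and library 2 of the 22 °C Cre-labelled group on top.

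The first question was whether warm housing changed complex I RNA in mice without Cre. It fell in members of every module of the enzyme. By limma on log2(value + 1), fitted over all 13176 genes with Benjamini-Hochberg adjustment and a threshold of 0.05, 32 of 37 members were lower at 30 °C and 0 were higher, where 22.7% of all genes tested were lower and 22.9% higher. In 33 of 37 the 4 libraries at 30 °C all lay below the 4 at 22 °C, which held for 21.3% of all genes. The median log2 difference of the members was -0.81, a fold of 1.75, against 0.04 over all genes. In whole tissue, fewer brown adipocytes and less RNA per brown adipocyte cannot be told apart. Those lower were all of the core N module (3 of 3) and of the core Q module (4 of 4), 8 of 9 accessory members of the matrix arm, 8 of 9 of the proximal and 9 of 10 of the distal membrane arm. Ndufa4 and Ndufa4l2 did not pass.

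Among the core subunits, Ndufs8 of the Q module, whose iron-sulfur clusters hand electrons on toward ubiquinone, had the smallest adjusted p. It is Entrez gene 225887 at chr19:3908863-3912774, and its start carries the BCL6 peak shown above. Its values were 7803, 5808, 5290.1 and 4931 at 22 °C and 2950.3, 2802, 3203 and 3049 at 30 °C, or 5958 ± 1282 against 3001 ± 169 (SD, n = 4 each). The groups were well apart. The log2 difference was -0.97, with an SE of 0.14 (limma adjusted p = 5.58e-05). Ndufv2, an iron-sulfur subunit of the N module, read 13458, 8802, 8665 and 8038 in the cool and 5035, 4776, 5137 and 4673 in the warm (log2 difference -0.96, limma adjusted p = 3.51e-04). The 7 core members ranged from -0.97 (Ndufs8) to -0.54 (Ndufs1), with a median of -0.81. The other 2 N-module members, Ndufv1 and Ndufs1, differed least among the core subunits together with Ndufs7 of the Q module.

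The accessory subunits held the largest falls. Ndufa1, a small protein of the proximal membrane arm needed for assembly (Entrez gene 54405, chrX:37187588-37191238), stood at 10727, 5725, 6026 and 5396 at 22 °C and 2455, 2493, 2914 and 2383 at 30 °C. Library 1 was far above the rest at 22 °C, and the other 3 were still clearly above every warm library. Its log2 difference was -1.39 ± 0.22 (SE), a fold of 2.62 (limma adjusted p = 1.06e-04). Ndufc1, a single-pass membrane subunit, had 5881, 3148, 2525 and 2553 against 1384, 1316, 1541 and 1194 (log2 difference -1.29, limma adjusted p = 4.72e-04). In the distal membrane arm, Ndufb6 stood at 8117, 4582, 4232 and 4073 against 2246, 2206, 2485 and 2170.2 (log2 difference -1.15, limma adjusted p = 3.16e-04), and its promoter with the BCL6 peak is printed above. Ndufb7, a subunit on the intermembrane-space side, had 4692, 3755, 3030.0 and 3122 against 1787, 1806, 2171 and 1765 (log2 difference -0.94, limma adjusted p = 2.05e-04). In each of these genes the lowest cool library lay above the highest warm library. Members at least 2-fold lower were Ndufa1, Ndufc1, Ndufb11, Ndufb5 and Ndufb6, 5 in all, against 4.52% of all genes, and each an accessory subunit of the membrane arm. Without control 22 °C library 1 only Ndufa1 (-1.16) and Ndufc1 (-1.01) were, and the differences of Ndufb6, Ndufb5 and Ndufb11 were -0.92, -0.87 and -0.81. With equal library totals or quantile normalization 0 members were. In the matrix arm, Ndufv3, a small partner of the N module, stood at 6314, 5240.0, 4423 and 4599 against 3405, 2756, 3282 and 2971 (log2 difference -0.72, limma adjusted p = 2.99e-04). The accessory median, -0.82, was close to the core median.

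The 5 members that did not pass were Ndufa7, Ndufa3, Ndufb4, Ndufa4 and Ndufa4l2, with limma adjusted p of 0.0925, 0.335, 0.259, 0.0527 and 0.094. The first 4 had negative log2 differences, from -0.30 to -0.56. Ndufa4l2, known elsewhere as a gene induced by low oxygen (Entrez gene 407790, chr10:127509274-127517154), was the only one with a positive difference. It stood at 138, 86.6, 72.5 and 86 at 22 °C and 120.1, 98.6, 162 and 149.5 at 30 °C, overlapping through library 1 of the cool group (log2 difference 0.48, 95% interval -0.00 to 0.96). Without control 22 °C library 1 the difference was 0.67 and passed (limma adjusted p = 0.0208). That test also passed without control 30 °C library 2, at 0.61 (limma adjusted p = 0.0479). Scaling mattered for the count. With libraries rescaled to equal totals, 21 members were lower and 1 higher (Ndufa4l2), against 8.76% and 49.9% of all genes. The members' median was then -0.41 while that of all genes moved to 0.43. With quantile normalization 20 were lower, against 21.2% of all genes, and the median was -0.38.

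In the Cre-labelled mice most members were also lower in the warm. There, 35 of 37 members were lower at 30 °C and 0 higher by the same limma test, against 17.7% and 15.0% of all genes. In 36 of 37 the groups did not overlap, against 18.3% of all genes. The median log2 difference was -0.86, a fold of 1.81, against 0.02 over all genes. No library is shared with the comparison in controls, and 31 members were lower in both. The share of all genes lower in both was not counted. The members that did not pass were Ndufa5, at -0.55 (limma adjusted p = 0.073), and Ndufa4l2.

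Ndufs8 again had the smallest adjusted p. It stood at 5054, 6356, 4397 and 4468 at 22 °C and 2248, 2459, 2413 and 2132 at 30 °C, or 5069 ± 907 against 2313 ± 151 (SD, n = 4 each). The lowest cool library was well above the highest warm one, and the log2 difference was -1.12 ± 0.14 (SE; limma adjusted p = 3.13e-05). Of the Q module, Ndufs3 had 6727, 9549, 5607 and 6313 against 3608, 4346, 3643 and 3673 (log2 difference -0.86, limma adjusted p = 4.80e-04). It was lower in every warm library than in any cool one. In the N module, Ndufv1, which binds NADH and the flavin (Entrez gene 17995, chr19:4007499-4012755), had 14478, 17489.6, 12480.5 and 13993 against 7027, 9415, 8378 and 7455 (log2 difference -0.85, limma adjusted p = 1.69e-04). Its partner Ndufv3 had 5487, 6313, 5126 and 4752 against 3162, 2686, 2953 and 2552 (log2 difference -0.93, limma adjusted p = 6.32e-05). Cre-labelled library 2 was the top library at 22 °C for each of these, and the other 3 stayed above the warm libraries.

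Among the other accessory subunits, Ndufa9, which sits where the matrix arm meets the membrane, stood at 7159, 10545, 5914 and 7005 against 3629, 4366, 4195 and 3811 (log2 difference -0.91, limma adjusted p = 4.23e-04). Ndufa10 of the proximal membrane arm had 8248, 11049.6, 6425 and 8244 against 4107, 5548, 4406 and 4618 (log2 difference -0.84, limma adjusted p = 4.37e-04). Ndufb7 had 3275, 4172, 3210.0 and 3138 against 1468, 2043, 2213 and 1561 (log2 difference -0.93, limma adjusted p = 3.51e-04). None of these pairs of groups overlapped. Ndufa1 had 4744, 8018, 4552 and 4599.6 against 2238, 2501, 3155 and 1999 and the largest fall, -1.12 (a fold of 2.18, limma adjusted p = 8.83e-04). Ndufs8, Ndufa1, Ndufb11 and Ndufb6 were at least 2-fold lower, against 3.04% of all genes. Without Cre-labelled 22 °C library 2 only Ndufs8 (-1.003) was, and the differences of Ndufa1, Ndufb6 and Ndufb11 were -0.93, -0.88 and -0.85. With equal library totals or quantile normalization 0 members were. Ndufa4l2 had 115, 146, 139 and 79.9 against 102, 143, 149.6 and 119, overlapping, with a log2 difference of 0.12 (95% interval -0.36 to 0.60, limma adjusted p = 0.728). The sign of that difference turned with quantile normalization (-0.020) and without Cre-labelled 22 °C library 4 (-0.063). With both libraries of highest member values left out, 32 members were lower and 1 (Ndufa4l2) higher in the controls, against 24.4% and 24.3% of all genes. Ndufa4 was gained and Ndufs7 lost, and the median was -0.62. In the Cre-labelled mice 36 were then lower, against 17.8% of all genes, with a median of -0.71. With equal library totals 30 were lower in the Cre-labelled mice, against 8.49% of all genes. Their median was -0.57 beside 0.31 over all genes.

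**Figure D2:**
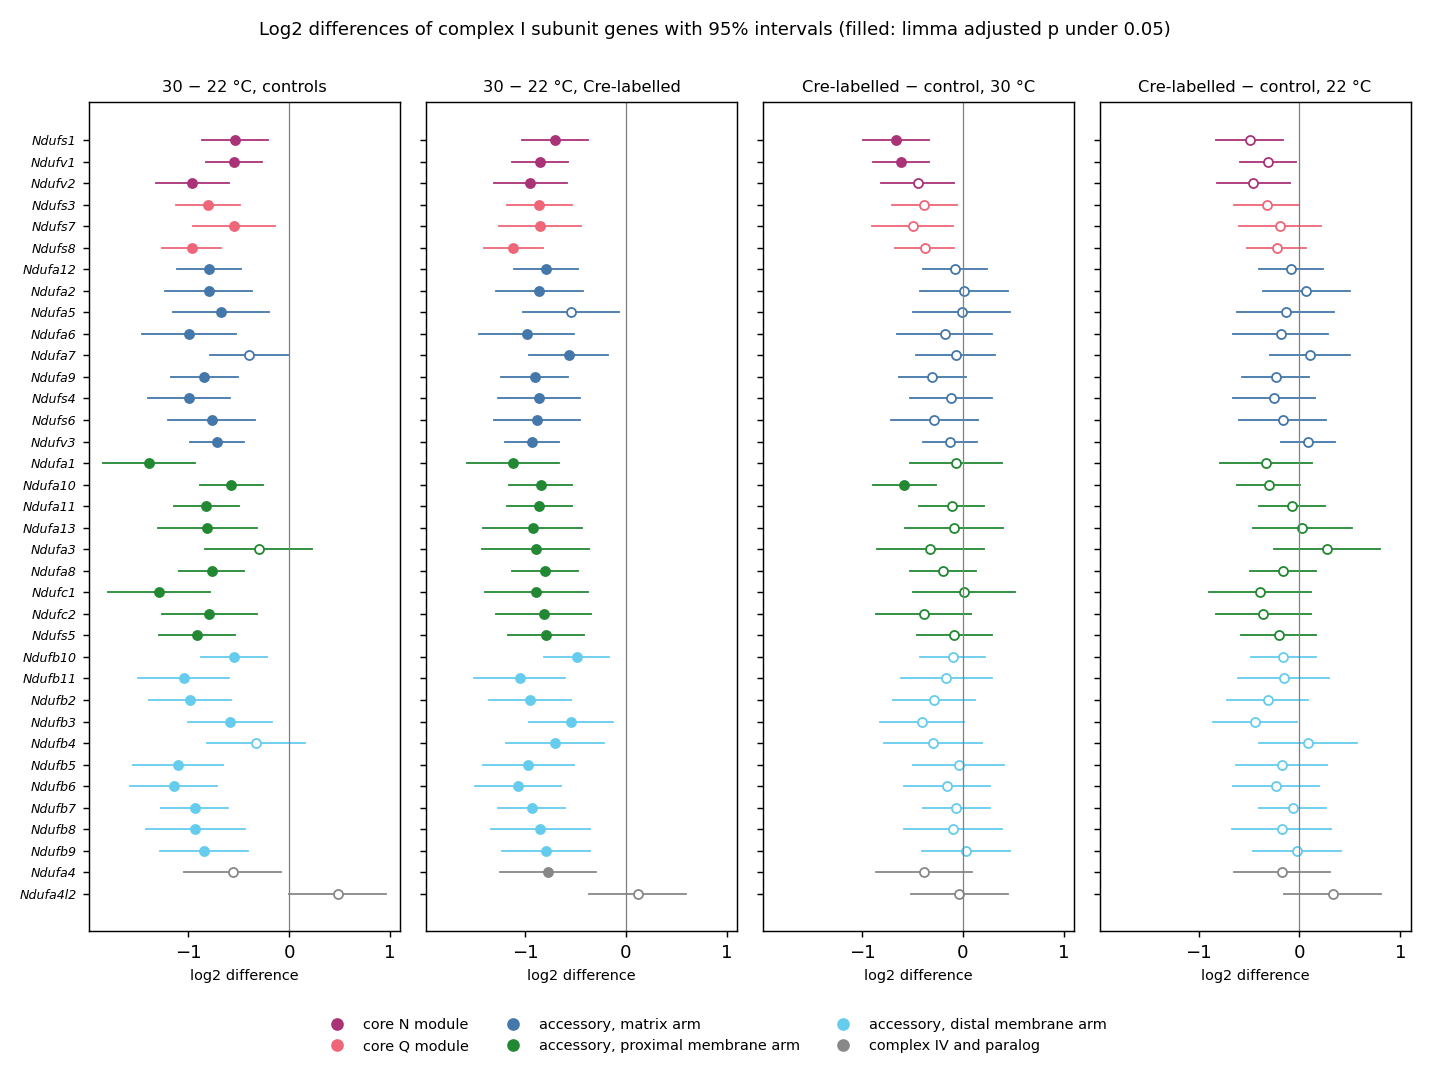
Each point is the limma log2 difference of 1 of the 36 genes drawn, with its 95% interval, coloured by role and filled where the adjusted p is under 0.05, in panels for both temperature and both genotype comparisons. Nearly every temperature point lies left of 0, with medians of -0.81 and -0.86 over all 37 members, while the filled genotype points at 30 °C are Ndufs1, Ndufv1 and Ndufa10 and the 22 °C panel has 0 filled points.

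The next question was whether the Cre label changed complex I RNA in warm-housed mice. At 30 °C most differences were small, and the more negative ones lay largely among the core subunits. By limma, 3 of 37 members were lower in Cre-labelled libraries and 0 higher, against 6.85% and 5.65% of all genes. In this fit the count of calls is near the background. With the 30 °C groups fitted alone 12 of 37 were lower, against 9.65% of all genes. The 4 Cre-labelled values lay below all 4 control values in 13 of 37 members, against 12.4% of all genes. Those 13 included all 7 core subunits and 5 of 28 accessory subunits (Ndufa9, Ndufs6, Ndufa10, Ndufc2 and Ndufb3), plus Ndufa4. The core differences had a median of -0.45, and that of Ndufs1 was the most negative at -0.66. The accessory differences ran from -0.58 to 0.03 with a median of -0.11, and the median over all genes was 0.01. The difference between core and accessory medians was not tested.

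The calls were Ndufv1, Ndufs1 and Ndufa10. Ndufv1 stood at 12432, 12686, 11666 and 12289 in controls and at 7027, 9415, 8378 and 7455 in Cre-labelled libraries, or 12268 ± 434 against 8069 ± 1060.0 (SD, n = 4 each). No Cre-labelled library reached the lowest control, and the log2 difference was -0.61 ± 0.13 (SE; limma adjusted p = 0.00558). Ndufs1, the largest subunit and the N module's main carrier of iron-sulfur clusters (Entrez gene 227197, chr1:63143592-63176822), had 7472, 8113, 6466 and 7948 against 4016, 5474, 4400.4 and 5149.8. Its log2 difference was -0.66 ± 0.16 (SE; limma adjusted p = 0.0106). Ndufa10, an accessory subunit with the fold of a nucleoside kinase (Entrez gene 67273, chr1:92439486-92473825), had 6926, 6928, 6602 and 7262 against 4107, 5548, 4406 and 4618, again without overlap. Its log2 difference was -0.58 ± 0.15 (SE; limma adjusted p = 0.0157). That call was lost without control 30 °C library 4 (adjusted p = 0.0506) or Cre-labelled 30 °C library 1 (adjusted p = 0.0572). Of these 3 genes Ndufa10 had a BCL6 peak near its start, at chr1:92473343-92473523, 325 bases past it and annotated as intronic in the authors' list.

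The remaining core subunits missed the threshold. Ndufs8 had 2950.3, 2802, 3203 and 3049 in controls against 2248, 2459, 2413 and 2132 in Cre-labelled libraries, a log2 difference of -0.38 (95% interval -0.67 to -0.08, limma adjusted p = 0.0896). Ndufv2 differed by -0.45 (limma adjusted p = 0.103), Ndufs7 by -0.50 (0.103) and Ndufs3 by -0.38 (0.117). At the other end, Ndufb9 had 5224, 5279, 5677 and 5045 against 5439, 5406, 6238 and 4657, fully overlapping, with the highest difference of the 37 at 0.028 (95% interval -0.41 to 0.46). In the settings that follow, the count of lower members rose relatively more than the share of all genes called lower. It was 12 with the 30 °C groups fitted alone (9.65% of all genes) and 7 with quantile normalization (9.25%). It was 6 without library 1 of the controls (8.59%) and 6 without library 2 of the Cre-labelled mice (8.22%), both at 22 °C. Without both of them it was 14 (11.1% of all genes), although neither belongs to this comparison. Leaving them out changed the shared estimate of spread and the set of genes tested, but not the log2 differences of this comparison. Ndufa4, for example, stood at -0.38 in both fits, with limma adjusted p of 0.311 and 0.00485. The 11 gained without both included Ndufv2, Ndufs3, Ndufs7 and Ndufs8 of the core, Ndufa9, Ndufs6, Ndufc2, Ndufb3 and Ndufb4 of the accessory subunits, and Ndufa4.

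The same values can be read as a difference taken within each library, which does not rely on scaling between libraries. This restates the split and adds no separate evidence for it. The mean log2 deviation of the 7 core members minus that of the 10 distal membrane arm members was 0.18, 0.20, 0.05 and 0.27 in the controls at 30 °C. In the Cre-labelled libraries at 30 °C it was -0.17, -0.05, -0.31 and -0.04, so the core was relatively lower in all 4 and the groups did not overlap. At 22 °C it was -0.23, 0.15, 0.23 and 0.15 in the controls and 0.01, -0.26, -0.15 and -0.01 in Cre-labelled libraries. The control that fell below 0 was library 1, and without it the controls lay above all 4 Cre-labelled libraries. Cre-labelled library 2 was likewise the lowest of its group, at -0.26. Both libraries had the fewest genes above 0 of their groups, and the part of that in the score was not tested. Since the members were chosen with results known, no test was made of this score.

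**Figure D3:**
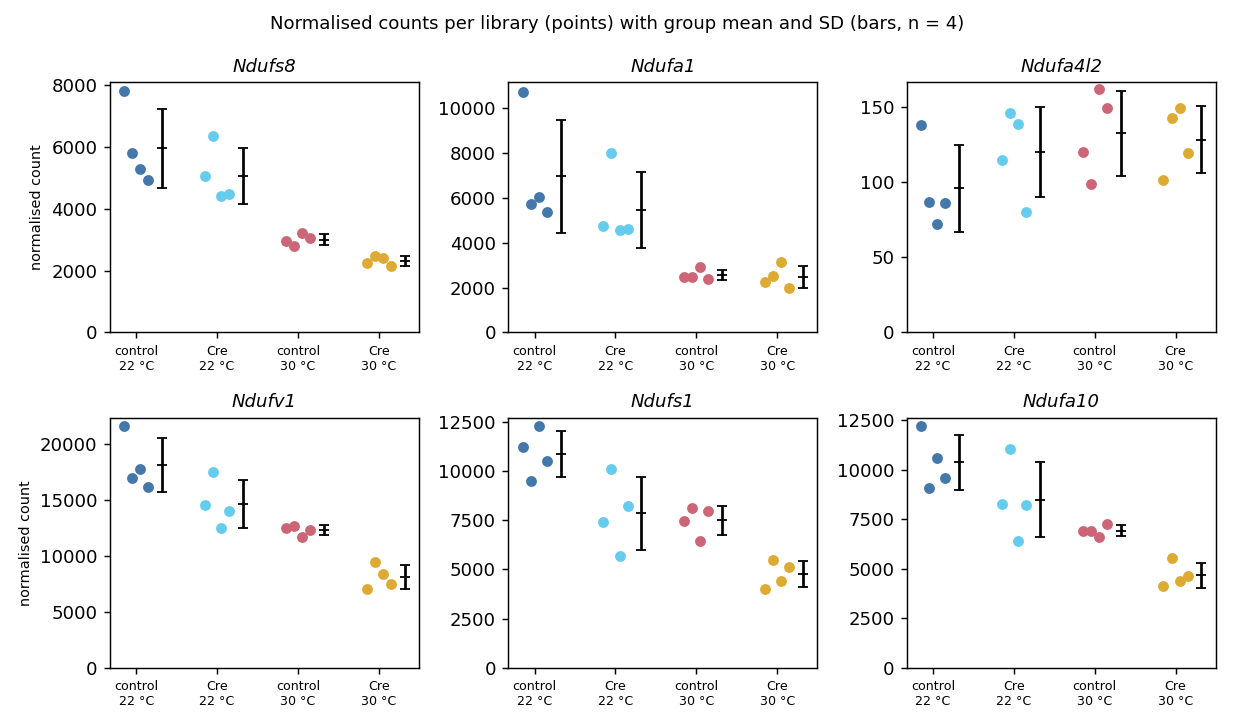
Points are normalised counts of 6 members in each of the 16 libraries, and bars give the group mean with the SD (n = 4). Ndufs8, Ndufv1, Ndufs1 and Ndufa10 separate by temperature and, at 30 °C, by Cre label, Ndufa1 separates by temperature, and Ndufa4l2 overlaps between all groups.

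At 22 °C the label gave 0 of 37 members lower and 0 higher by limma, against 4.69% and 5.51% of all genes, and 6 members had an unadjusted p under 0.05, a smaller share than the 25.5% of all genes that did. In 0 of 37 did the groups separate downward, against 6.06% of all genes. The difference was negative in 30 of 37, against 6654 of 13176 genes. The median difference was -0.18. It turned to 0.01 without control library 1 and with quantile normalization. The core members again had the more negative median, -0.33 against -0.17 for the accessory members. Ndufs1 stood at 11234, 9518, 12300.2 and 10495 in controls against 7401, 10114, 5676 and 8225 in Cre-labelled libraries, where library 2 alone overlapped (log2 difference -0.50 ± 0.16 SE, limma adjusted p = 0.0539). Ndufv2 had 13458, 8802, 8665 and 8038 against 6835, 9884, 5288 and 6471 (log2 difference -0.46, limma adjusted p = 0.101). In both genes Cre-labelled library 2 was the one within the control range. Without it, 8 members were lower, beside 9.03% of all genes, among them Ndufv1, Ndufv2, Ndufs1, Ndufs3, Ndufa9, Ndufa10 and Ndufb3, and the adjusted p of Ndufs1 and Ndufv2 were 0.00927 and 0.0105. Without control library 1 the count was 0, and without both it was 6, beside 5.05% and 9.06% of all genes. The highest difference was that of Ndufa4l2, at 0.33 (95% interval -0.15 to 0.81, limma adjusted p = 0.397).

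Whether the label's difference changed with temperature was tested as an interaction. It was called in 0 of 37 members by limma, and 0 had an unadjusted p under 0.05, where 58 of 13176 genes (0.440%) were called and 1387 had an unadjusted p under 0.05. The median was -0.03. The smallest adjusted p belonged to Ndufa3, a short membrane subunit with 2919, 1739, 1279.9 and 1386 in controls and 1813, 2894, 2073 and 1762 in Cre-labelled libraries at 22 °C. At 30 °C it had 1353, 1206, 1821 and 1307 against 753, 1061, 1498 and 1331. Its interaction was -0.59 (95% interval -1.34 to 0.15, limma adjusted p = 0.612), which leaves a wide range of values possible. Next were Ndufv1 at -0.30 (95% interval -0.70 to 0.09) and Ndufa10 at -0.27 (95% interval -0.71 to 0.17). The highest was Ndufc1, at 0.40 (95% interval -0.32 to 1.12). In Cre-labelled libraries Ndufc1 had 2311, 3775, 2169.9 and 2137 at 22 °C and 1273, 1751, 1448 and 1069 at 30 °C. In simulated libraries of this size with 200 genes changed, a true interaction with a log2 size of 1 was recovered in 52.2% of 67 genes. One of 0.5 was recovered in 5.97%, so differences of the size seen here would mostly be missed in such libraries.

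**Figure D4:**
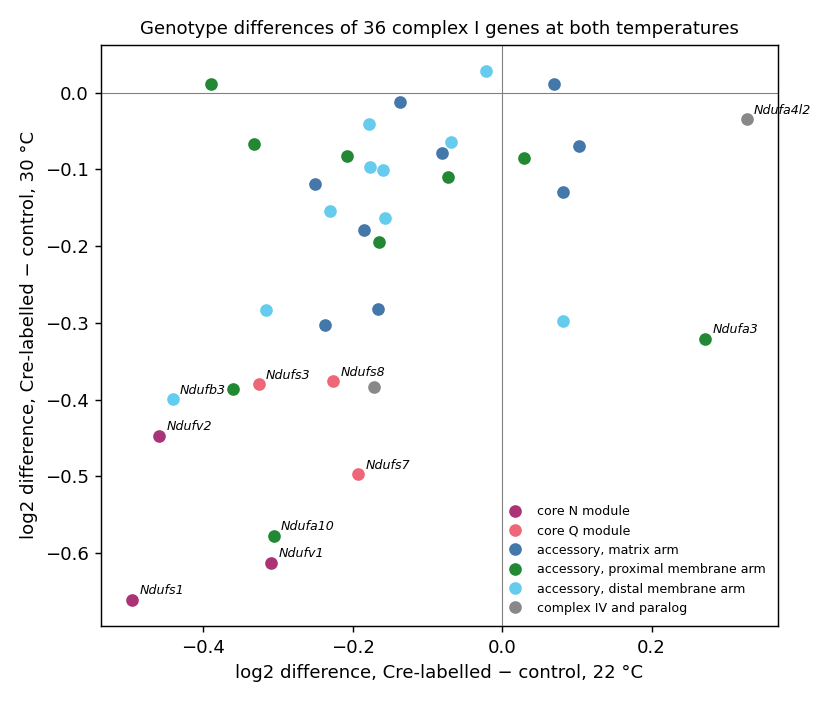
Each point is 1 of the 36 genes drawn, with the Cre-labelled minus control log2 difference at 22 °C on the x axis and at 30 °C on the y axis, coloured by role. The 6 core genes drawn lie in the lower left, and Ndufa4l2 and Ndufa3 lie to the right of 0 at 22 °C.

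The label's differences at both temperatures, which share no library, were negative at both in 28 of 37 members and positive at both in 1. Over all 13176 genes, 6483 were negative at 30 °C and 6654 at 22 °C. The share negative at both was not counted. Across the 37 genes Pearson's r was 0.49, as a description only, since genes of a library share its depth and scaling. Members also moved together from library to library inside a group, in values that include both high 22 °C libraries. No correlation was taken without those libraries or over all genes tested. With group means removed, the correlation of each member with the mean of the other members over the 16 libraries was highest for Ndufb6 (0.99), Ndufc2 (0.99), Ndufb5 (0.99), Ndufb11 (0.98) and Ndufs6 (0.98), all accessory subunits. It was lowest for Ndufs1 (0.36), Ndufa4l2 (0.69), Ndufa10 (0.72), Ndufv3 (0.77) and Ndufa3 (0.78). Ndufs1 and Ndufa10, both among the calls for genotype at 30 °C, were thus among the 3 members that followed the others least. Library 1 of the 22 °C controls shows the spread. There Ndufs1 was 1.04 times the mean of the other 3 libraries and Ndufa10 1.25 times, while Ndufb4 was 2.27 times. In library 2 of the 22 °C Cre-labelled group the same genes were closer, at 1.42, 1.45 and 1.66 times.

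Other genes of the pathway, from lists set by function, are given beside the members. Of all genes, 22.7% were lower and 22.9% higher with temperature in controls, and 17.7% and 15.0% in Cre-labelled libraries. With the label, 6.85% were lower and 5.65% higher at 30 °C, and 4.69% were lower at 22 °C. Of 19 measured assembly factors of complex I, 14 were lower at 30 °C in controls and 14 in Cre-labelled libraries, with medians of -0.60 and -0.69, and 0 were higher. Ndufaf4 fell by 1.14 on the log2 scale in controls (limma adjusted p = 8.41e-06), and Tmem70, which also serves ATP synthase assembly, by 1.02 (limma adjusted p = 1.42e-05). For the Cre label at 30 °C, 5 of 19 were lower and 0 higher. They were Ecsit (-0.49), Tmem186 (-0.49) and Ndufaf1 (-0.48), which work in the intermediate assembly complex that builds the membrane arm, together with Ndufaf6 (-0.47) and Tmem70 (-0.43), with limma adjusted p from 0.00342 to 0.031. At 22 °C 2 of 19 were lower, Ndufaf4 (-0.50) and Tmem70 (-0.48). Ndufab1, the acyl carrier protein that is also a complex I subunit but falls outside the symbol rule, differed by -0.36 (limma adjusted p = 0.17) with temperature in controls. In Cre-labelled libraries it fell by 0.61 (limma adjusted p = 0.0347).

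Most genes of the other respiratory complexes were lower in the warm too. Of all genes, 22.7% were lower and 22.9% higher with temperature in controls. In controls the counts were 4 of 4 complex II genes (median -0.68), 9 of 9 of complex III (-0.98), 12 of 16 of complex IV (-0.71, with 2 higher) and 13 of 16 of ATP synthase (-0.70). For the Cre label at 30 °C the counts lower were 1 of 4, 2 of 9, 1 of 16 and 0 of 16, with medians of -0.39, -0.17, -0.20 and -0.17, beside -0.16 for complex I. Over all genes 6.85% were lower and 5.65% higher with the label at 30 °C. The gene of complex II that passed was Sdha, its flavin subunit, at -0.66 (limma adjusted p = 0.00981). No test was made of a difference between complexes. Atp5g1, an ATP synthase gene, stood apart with 160.3, 70.8, 86.1 and 62.8 in controls against 3177, 3765, 1677 and 2408 in Cre-labelled libraries at 22 °C, and 134, 144, 148 and 117 against 695, 944, 1070.1 and 765 at 30 °C. It was chosen for naming after its values were seen. Of 10 measured regulators of mitochondrial genes, 2 were lower and 1 higher with temperature in controls, and 1 was lower and 1 higher with the label at 30 °C. Ppargc1a, a coactivator, differed by -1.60 with temperature in controls (limma adjusted p = 0.00229) and by -0.13 with the label at 30 °C (limma adjusted p = 0.87). Esrra, the nuclear receptor ERRα that works with it, differed by -0.86 (limma adjusted p = 1.83e-04) and by -0.52 (limma adjusted p = 0.0236). Gabpb1, a subunit of the ETS factor GABP, was higher in both, by 0.52 (limma adjusted p = 0.0163) and 0.54 (limma adjusted p = 0.0391). Over the 16 libraries the log2 values of Esrra, Ppargc1a and Gabpb1 correlated with the members' mean at r = 0.82, 0.72 and -0.75, and at 0.08, 0.01 and -0.29 with group means removed. The other regulators ran from -0.51 (Pprc1) to 0.78 (Tfam) over the 16 libraries. With group means removed they stood at -0.89 (Gabpa), -0.58 (Pprc1), -0.54 (Ppargc1b), -0.52 (Esrrg), -0.31 (Yy1), 0.32 (Tfam) and 0.41 (Nrf1). All these correlations include both high 22 °C libraries, and none was taken without them.

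Markers of cell types moved with the same comparisons. Of all genes, 22.7% were lower and 22.9% higher with temperature in controls. With the label at 30 °C, 6.85% were lower and 5.65% higher. The 10 brown adipocyte markers were all above 0 in every library, and their summed level ran from 241334 to 379535 in controls and 203145 to 313741 in Cre-labelled libraries at 22 °C, and 120354 to 142549 and 116027 to 144468 at 30 °C. With temperature in controls 8 of 10 were lower, and with the label at 30 °C 3 of 10 were lower, although the summed levels of the 30 °C groups overlapped. Ucp1 itself differed by -2.38 with temperature in controls and by -1.68 with the label at 30 °C (limma adjusted p = 2.77e-06 and 2.80e-04). The 10 macrophage markers, also above 0 throughout, summed to 1157 to 2005 in controls and 1973 to 2810.2 in Cre-labelled libraries at 22 °C, and 3196 to 3939 and 5531 to 13587 at 30 °C. Of them 9 were higher with temperature in controls and 9 with the label at 30 °C. The 30 °C groups, where member values were lower, had the higher sums. Inside the 22 °C groups, control library 1 and Cre-labelled library 2, with the high member values, also had the highest sums, 2005 and 2810.2. The 15 skeletal muscle markers summed to 1425 to 5873 in controls and 1411 to 39485 in Cre-labelled libraries at 22 °C, and 11299 to 20349.7 and 801 to 33968 at 30 °C, and 7 of them were at 0 in some library. Muscle has much complex I of its own. With a muscle score as a covariate, 28 members were lower with temperature in controls and 35 in Cre-labelled libraries. The shares of all genes lower were 18.5% and 17.9%. With the label at 30 °C, 3 members were lower, the same count as without the covariate, beside 843 of 13176 genes. In controls, 14 of the 15 muscle markers were higher in every 30 °C library than in any 22 °C library. There the covariate cannot separate muscle from temperature. Counts higher with temperature in controls were 6 of 15 for muscle, 3 of 6 for endothelial, 3 of 6 for progenitor, 3 of 5 for lymphocyte, 0 of 3 for erythrocyte and 0 of 4 for Schwann cell markers (1 lower). Counts higher with the label at 30 °C were 0 of 15, 1 of 6, 0 of 6, 1 of 5, 0 of 3 and 0 of 4 (1 Schwann marker lower). Summed erythrocyte markers were also highest at 22 °C in the pair of libraries with high member values, at 28662 and 31369. The part of any of these cell types in the complex I results was not tested.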

How the data were processed

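RNA of interscapular brown fat was analysed in 16 libraries, 4 per group. Per the labels' protocols they were stranded polyA libraries. Per the submitters' processing notes, the authors used kallisto, mm10 and DESeq2. The deposited values are a signal per gene, scaled between libraries, 0.202% of them whole numbers (within 0.001), so raw depth is unknown and no count model was used. All 16 sample columns were matched by name. Of 24116 entries, 14 had no symbol. The deposited peak list holds the authors' score per BCL6 peak, and per the file headers HOMER annotated it. Per the submitters' processing notes, the authors used Bowtie2 and HOMER. Not given in the sources used here are the score's scale, the peak threshold, the annotation and tool versions. The other ChIP samples were not analysed here.

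Tests ran on log2(value + 1), which understates the change of low genes, for the 13176 genes with a mean of at least 10. limma 3.58.1 in R 4.3.3 fitted 1 mean per group to all 16 libraries, with empirical Bayes moderation and a mean trend (prior degrees of freedom 4.83, residual 12). The Benjamini-Hochberg adjustment covered every gene tested, and the threshold was 0.05. The fit was tested on simulated data: of 67 genes changed by a log2 size of 1, it recovered 74.6% for genotype at 30 °C and 73.1% for temperature in either group. At 0.5 it recovered 32.8%, 23.9% (controls) and 34.3% (Cre-labelled). Each simulation changed 200 of 13176 genes and drew noise separately for each gene. In the data more genes were called by temperature, which loosens the adjusted threshold, and members move together, so these rates do not carry over directly.

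The members, role groups, pathway and marker lists were chosen with earlier results of these data known. Values in every library were given for those members past the threshold with the smallest adjusted p in a comparison, at most 8, (the 3 smallest where fewer than 3 passed) and for the member with the largest difference in each direction. Alternatives were other pseudocounts, filters, scalings, moderation settings, groups fitted alone, a replicate block, a muscle covariate and leaving out each library. Leaving out library 1 of the 22 °C controls together with library 2 of the 22 °C Cre-labelled group was chosen after seeing the data. Gene positions and promoters came from RefSeq tables of GRCm38.p6, matched by symbol or gene ID, with peak coordinates as deposited. Values of 1 member are not reported here singly or drawn gene by gene, and it stays in every count, median and range. No genome sequence was used beyond these windows.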

Additional observations from a re-analysis of the deposited data

Results flagged for a closer look

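In 42 of 148 combinations of a member and a group, 1 library stood so far from the other 3 that its gap exceeded Dixon's 95% critical value for 4 samples. Chance alone gives such a gap in about 1 of 20 groups, and members of 1 library are not independent. Control 22 °C library 1 was the high value in 19 members, in normalised counts. Of the Ndufa members these were Ndufa1 at 10727, Ndufa13 at 11349, Ndufa4 at 22613, Ndufa5 at 8135, Ndufa6 at 9276 and Ndufa7 at 4293. Of the Ndufb members these were Ndufb11 at 14748, Ndufb2 at 3304, Ndufb3 at 8959.7, Ndufb4 at 4733, Ndufb5 at 11081, Ndufb6 at 8117, Ndufb8 at 25893 and Ndufb9 at 15438. Of the Ndufc, Ndufs and Ndufv members these were Ndufc2 at 8165, Ndufs3 at 11300.2, Ndufs4 at 6495, Ndufs6 at 5681 and Ndufv2 at 13458. In that library the mean log2 deviation over all 37 members was 1.06, against 0.25 to 0.36 in the other 3. Cre-labelled 22 °C library 2 was the high value in 16 members. Of the Ndufa members these were Ndufa1 at 8018, Ndufa13 at 9899, Ndufa2 at 5232, Ndufa4 at 17691 and Ndufa5 at 6319. Of the Ndufb members these were Ndufb11 at 12572, Ndufb2 at 2319, Ndufb3 at 6276, Ndufb4 at 3962, Ndufb7 at 4172, Ndufb8 at 23570.1 and Ndufb9 at 14234. Of the Ndufc, Ndufs and Ndufv members these were Ndufc1 at 3775, Ndufs5 at 4598, Ndufs6 at 4376 and Ndufs7 at 6998. Both accessory and core subunits are in these lists.

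Control 30 °C library 3 was the high value in 4 members, Ndufa7 at 2406, Ndufb7 at 2171, Ndufb8 at 9344 and Ndufc2 at 3022. Cre-labelled 30 °C library 4 was the low value in 2, Ndufa4 at 5949 and Ndufa5 at 2522. Cre-labelled 30 °C library 2 was the high value for Ndufs3 at 4346.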

How the results depend on the processing

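Pseudocounts of 0.5 and 5, no filter on low values, no mean trend, robust moderation and the muscle covariate kept the count of members called in each comparison within 1.5 times its value. With a mean of at least 50, 1 member was lower by the label at 22 °C (5.46% of all genes). Quantile normalization gave 7 lower by the label at 30 °C (9.25%) and 20 lower by temperature in controls (21.2%). Equal library totals gave 21 lower (8.76%) and 1 higher (49.9%) by temperature in controls. Fitting the 30 °C groups alone gave 12 lower by the label (9.65%). Without both high 22 °C libraries, an alternative chosen after seeing the data, 14 (11.1%) and 6 (9.06%) were lower by the label at 30 and 22 °C. In that run 1 was higher by temperature in controls (24.3%). Leaving out 22 °C libraries did not change the log2 differences by the label at 30 °C, only the shared estimate of spread and the genes tested. The cause of the other moves was not tested. Leaving out 1 library at a time gave 2 to 6 members lower by the label at 30 °C, 0 to 8 at 22 °C, 29 to 33 lower and 0 to 1 higher by temperature in controls, and 30 to 36 lower in Cre-labelled libraries. The interaction stayed at 0 members in each alternative run. Differences near 0 changed sign: Ndufb9 by the label at 30 °C was -0.045 with the muscle covariate, and -0.041 (without Cre-labelled 30 °C library 3) to 0.100 with 1 library left out. Ndufa4l2 by temperature in Cre-labelled libraries was -0.020 with quantile normalization, and -0.063 (without Cre-labelled 22 °C library 4) to 0.22 with 1 library left out. With the higher-scoring 50% of peaks, 0 members were the gene listed as nearest to a BCL6 peak within 10 kb. The peak upstream of Ndufa11, which the list gives to another gene, scored above the median.

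Same-numbered libraries were not treated as pairs in the main fit. Their deviations correlated at -0.48 to 0.24 over 24 pairs, 6 of them above 0.1. With 4 libraries per group this cannot exclude a pairing. With the replicate block, 3 and 0 members were lower by the label at 30 and 22 °C, and 33 and 34 by temperature in controls and Cre-labelled libraries. The shares of all genes were 6.10%, 3.99%, 22.0% and 16.8% in that order.

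With 4 libraries per group and unknown depth, small differences can be missed. In simulated data with 200 genes changed, a log2 size of 0.5 was recovered in 14.9% of 67 genes for the label at 22 °C.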
